A study of Homo sapiens with 2 samples.

Results

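hsa-miR-155-5p and hsa-miR-146a-5p are the 2 microRNAs (miRNAs) best known for being switched on by the transcription factor NF-kB, and they were taken by name from a table of 407 miRNAs. Both were present, and both had at least 20 reads in a library, as did 161 of the 407. The cells were BT549, an established human breast cancer line, made to overexpress the long non-coding RNA SNHG15 carrying MS2 hairpins, which are RNA loops that the phage MS2 coat protein (MCP) binds. Lysate of these cells was kept for 5 h at 4 °C either with amylose resin coated with MBP-MCP, a fusion of maltose binding protein and MCP, or with bare amylose resin. Both groups therefore carry the same tagged SNHG15 and differ in the protein on the resin. The comparison asks which miRNAs are recovered with SNHG15, and binding through SNHG15 cannot be told apart from binding to MBP-MCP itself, since no library here came from MBP-MCP resin with untagged cells. Each resin gave 1 library, so no difference has a replicate check. The MBP-MCP library held 202560 miRNA reads and the bare-resin library 111414.

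NF-kB is the transcription factor that inflammatory receptors and cytokines release from its inhibitors in the cytoplasm, and it activates both miRNA genes. miR-155-5p is made from the non-coding transcript MIR155HG. It represses SOCS1 and INPP5D (SHIP1), which restrain cytokine and phosphoinositide signalling, and it is often raised in lymphoma and in breast tumours. miR-146a-5p represses IRAK1 and TRAF6, signalling proteins that carry Toll-like and interleukin-1 receptor signals to NF-kB, and so acts as a negative feedback. miRNA names here follow the deposited table, without its species prefix hsa. Whether NF-kB was active in these cells was not analysed here.

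The mature sequences, taken from RefSeq on GRCh38.p14, are shown because the seed, bases 2 to 8 and in capitals, guides which targets a miRNA pairs with. miR-146b-5p, which is not among the 407 miRNAs with counts, is shown beside its close relative.
miR-155-5p: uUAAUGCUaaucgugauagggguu
miR-146a-5p: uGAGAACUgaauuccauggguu
miR-146b-5p: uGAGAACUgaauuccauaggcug
The seeds of miR-155-5p and miR-146a-5p differ, so they share an inducer and not a target motif. Among 2370 named mature miRNAs in the RefSeq table, 0 others carry the seed of miR-155-5p, and 2 others, miR-146b-5p and miR-7153-5p, carry that of miR-146a-5p. Counted from 1 at the 5′ end of miR-146a-5p, the sequence of miR-146b-5p differs from it by G18A and U21C and is 1 base longer. Reads that end before base 18 match both, and the labels do not say how such reads were assigned, so the level of miR-146a-5p is uncertain to that extent. miR-155-5p has 24 bases and a GC content of 37.5%, and miR-146a-5p has 22 bases and 40.9%.

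The plus-strand bases 25573983 to 25574006 of chromosome 21 (GRCh38.p14) encode miR-155-5p, within the hairpin gene MIR155. GENCODE 29 places that hairpin in exon 4 of the 4 exons of MIR155HG, a lincRNA. miR-146a-5p is encoded on chromosome 5, plus-strand bases 160485372 to 160485393, within MIR146A. That hairpin falls in the last exon, exon 2, of both annotated transcripts of the lincRNA MIR3142HG. Each miRNA thus has its own host gene. The opposite arms, miR-155-3p and miR-146a-3p, are not among the 407 miRNAs with counts and could not be compared.

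miR-155-5p had 265 reads in the MBP-MCP library and 113 in the bare-resin library. Scaled to 1000000 miRNA reads (RPM) this was 1308 (95% interval 1156 to 1476) on MBP-MCP resin, against 1014 (836 to 1219) on bare resin. It took 0.131% of the MBP-MCP library and 0.101% of the bare-resin library. These are exact Clopper-Pearson intervals, here and below, and they cover counting error only. They say nothing of how far a repeat of either pulldown would vary. The level was higher on MBP-MCP resin, but the intervals of the 2 libraries overlap.

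miR-146a-5p had 92 reads in the MBP-MCP library and 50 in the bare-resin library. Its level was 454 RPM (366 to 557) on MBP-MCP resin, against 449 RPM (333 to 592) on bare resin. It was the rarer of the pair in both libraries: 2.88 reads of miR-155-5p were counted for each read of miR-146a-5p on MBP-MCP resin, and 2.26 on bare resin. The quotient of those numbers, 1.27, needs no scaling of the libraries, and its interval of 0.826 to 1.95 includes 1. A different recovery of the 2 miRNAs was therefore not detectable at this depth.

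**Figure D1:**
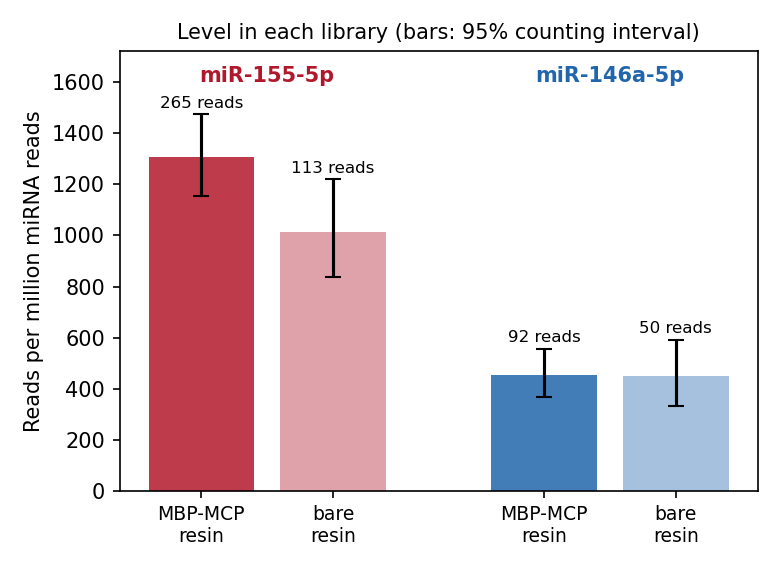
RPM (vertical axis) of miR-155-5p and miR-146a-5p in the MBP-MCP library and the bare-resin library, with the reads behind each bar and 95% counting intervals as error bars. miR-155-5p stands at 1308 RPM on MBP-MCP resin and 1014 RPM on bare resin, and miR-146a-5p at 454 RPM on MBP-MCP resin and 449 RPM on bare resin.

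Scaled to the library total, miR-155-5p was 1.29-fold higher on MBP-MCP resin than on bare resin (interval 1.03 to 1.62), a log2 ratio of 0.37. With an equal share of both libraries, 205 of its reads would have been counted on MBP-MCP resin in place of the 265 that were. Of its 378 reads, 70.1% came from the MBP-MCP library, which held 64.5% of all reads. The lower bound of the interval lies close to 1, and the upper bound lies under 2-fold.

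miR-146a-5p had a ratio of 1.01 (0.710 to 1.46), a log2 ratio of 0.02. Its share of reads from the MBP-MCP library, 64.8%, was that of the library as a whole to within counting error. It rested on 142 reads in all, and ratios anywhere in that interval cannot be told apart from it. The 2 miRNAs that share NF-kB as an inducer thus had ratios whose intervals overlap, 1 of them lying above 1.

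Neither miRNA reached 2-fold, so 0 of the 2 was called by that rule. Of the 161 miRNAs that reached 20 reads, 2.48% were at least 2-fold higher on MBP-MCP resin and 3.11% at least 2-fold lower. An interval above 1 was found for 1 of the 2, miR-155-5p, and for 11.2% of the 161, while 23.6% had an interval below 1. Of the 133 known miRNAs among the 161, 12.0% had an interval above 1 and 19.5% below. miR-155-5p ranked 17 of 161 by log2 ratio, and 15 of the 133 known miRNAs among them. miR-146a-5p ranked 62 of 161. An interval above 1 was thus shared with 17 other miRNAs and is not particular to miR-155-5p.

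Ratios were also compared among miRNAs of like depth. Among the 27 miRNAs, miR-155-5p included, whose reads over both libraries lay between 189 and 756, which spans 0.5 to 2 times those of miR-155-5p, log2 ratios ran from −0.86 to 0.46 with a median of −0.26. Only 1 of the 27, miR-183-5p, had a higher ratio than miR-155-5p. Among the 105 miRNAs that reached 50 reads, miR-155-5p ranked 6. The highest of the 105 was miR-92a-3p, of the miR-17-92 cluster, with 1319 reads on MBP-MCP resin and 452 on bare resin and a ratio of 1.61. The lowest was miR-29c-3p, whose known targets include collagen transcripts, with 209 reads in each library and a ratio of 0.550. Among 56 miRNAs of 71 to 284 reads, the like span around miR-146a-5p, 20 had a higher ratio than it.

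**Figure D2:**
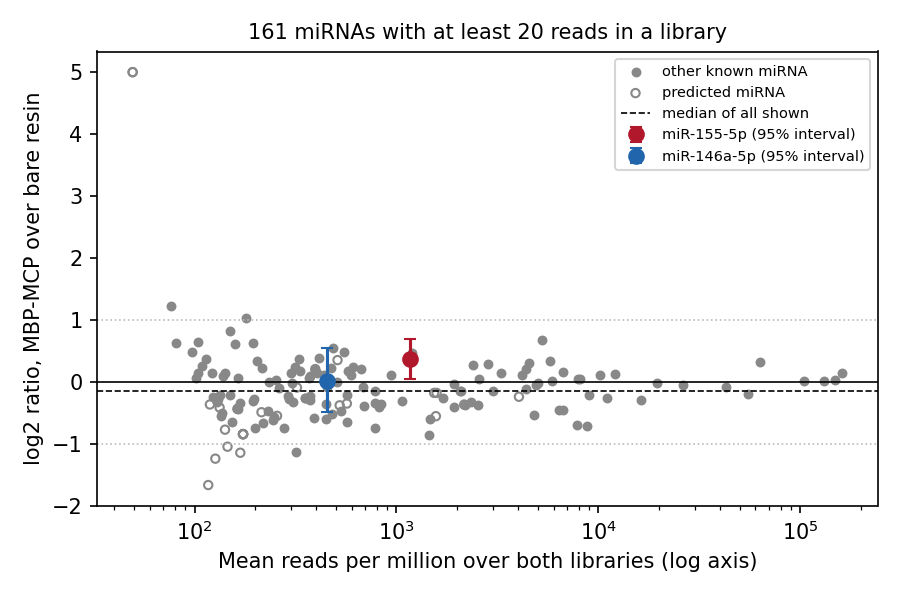
log2 ratio of RPM, MBP-MCP over bare resin (vertical axis), against the mean level in RPM (horizontal log axis) for 161 miRNAs, each point 1 miRNA, with 95% intervals for miR-155-5p and miR-146a-5p. The dashed line is the median of −0.16 and dotted lines mark 2-fold. The open point at the top is 2 predicted miRNAs with 20 MBP-MCP and 0 bare-resin reads each, whose place depends on the prior count; miR-155-5p lies near the upper edge of miRNAs of its level and miR-146a-5p within the bulk.

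By level, miR-155-5p was the 46th of 357 known miRNAs on MBP-MCP resin and the 48th on bare resin. On MBP-MCP resin its neighbours in that order were miR-183-5p, with 280 reads, and miR-218-5p, with 235, and these 2 were the only known miRNAs whose reads did not differ from its 265 beyond counting error. On bare resin 9 known miRNAs, from 87 to 132 reads, could not be told apart from its 113. miR-146a-5p was the 68th known miRNA on MBP-MCP resin and the 72nd on bare resin. There its order is loose: 24 known miRNAs on MBP-MCP resin, from 67 to 121 reads, and 38 on bare resin, from 32 to 69, did not differ from it beyond counting error.

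The pattern most like that of miR-155-5p, by the Euclidean distance of log2 RPM over the 2 libraries, was that of miR-183-5p, of a cluster known from sensory organs (distance 0.08). It had 280 reads on MBP-MCP resin and 112 on bare resin, and its ratio of 1.38 (1.10 to 1.73) also lay above 1. Next came miR-20a-5p of the miR-17-92 cluster (197 MBP-MCP and 100 bare-resin reads, distance 0.46) and let-7c-5p of the tumour-suppressing let-7 family (194 MBP-MCP and 132 bare-resin reads, distance 0.50). The remaining 3 of the 6 nearest were 2 predicted miRNAs and miR-218-5p, at distances of 0.70 to 0.81. miR-218-5p had 235 MBP-MCP and 196 bare-resin reads and a ratio of 0.659 (0.543 to 0.801). The distance is taken over both libraries and so already contains the ratio. A near miRNA with a like ratio is therefore no separate finding. For miR-146a-5p the nearest was miR-23b-3p, with 89 MBP-MCP and 52 bare-resin reads (distance 0.07), and the second was miR-339-5p, with 92 MBP-MCP and 47 bare-resin reads (distance 0.09).

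The ratios are shares of a library and move with its scaling. The median log2 ratio of the 161 miRNAs was −0.16 with total reads, and that of the 133 known miRNAs among them was −0.06. Trimmed-mean (TMM) factors added 0.20 to every log2 ratio and DESeq2 size factors 0.28. Leaving the 5 most abundant miRNAs out of the totals added 0.12, and scaling to the summed let-7 family gave a shift of −0.06. Intervals above and below 1 numbered 18 and 38 when scaled by total reads, 36 and 15 under TMM and 44 and 12 under DESeq2. A position relative to the median of the 161 does not depend on this choice: miR-155-5p lay 0.52 above it on the log2 scale and miR-146a-5p 0.17.

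Against the median ratio of 0.897, miR-155-5p was 1.44 times as high (interval 1.15 to 1.81), and it was 1 of 31 miRNAs, 19.3% of the 161, whose interval lay above that median. miR-146a-5p was 1.13 times the median, with an interval of 0.791 to 1.63 that includes it. The ratio of miR-155-5p was 1.48 (1.18 to 1.86) with TMM factors and 1.56 (1.25 to 1.97) with DESeq2 size factors. Scaled to the let-7 family it was 1.24, and its interval of 0.992 to 1.56 then included 1. The ratio of miR-146a-5p ran from 0.974 with the let-7 family to 1.23 with DESeq2 size factors, and its interval included 1 under each of the 5 scalings.

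**Figure D3:**
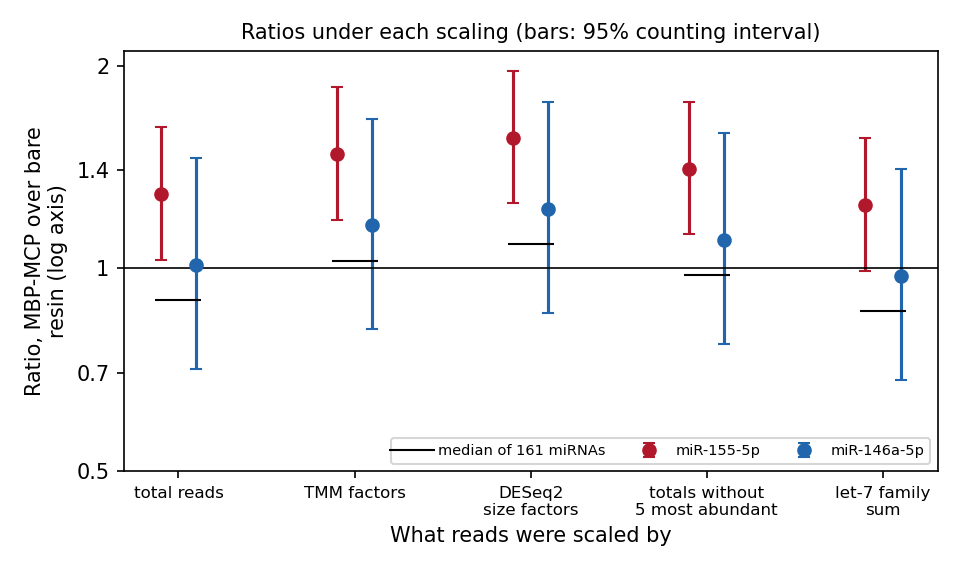
Ratio of MBP-MCP over bare resin (vertical log axis) of miR-155-5p and miR-146a-5p under 5 scalings (horizontal axis), with 95% counting intervals and the median of 161 miRNAs as a dash. The interval of miR-155-5p lies above 1 except with the let-7 family sum, where it starts at 0.992, and that of miR-146a-5p includes 1 throughout.

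Pairs of miRNAs within a library avoid scaling altogether, and 4 abundant miRNAs, chosen after their values were seen, were set beside the pair. For each 100 reads of miR-21-5p, an abundant NF-kB target, there were 3.13 reads of miR-155-5p on MBP-MCP resin and 2.29 on bare resin, a quotient of 1.37 (1.09 to 1.72). Against let-7a-5p the quotient was 1.27 (1.02 to 1.60). Against miR-16-5p, which represses BCL2 and was the most abundant miRNA, it was 1.16 with an interval of 0.930 to 1.47 that includes 1. Against miR-92a-3p it was 0.804 (0.626 to 1.04). The interval thus lay above 1 against miR-21-5p and let-7a-5p and included 1 against miR-16-5p and miR-92a-3p. Each quotient carries the partner's own ratio, so the side of 1 on which it falls depends on the partner chosen.

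For miR-146a-5p the same quotients were 1.07 (0.750 to 1.55) against miR-21-5p, 0.998 (0.699 to 1.44) against let-7a-5p and 0.913 (0.640 to 1.32) against miR-16-5p. Against miR-92a-3p, 6.97 reads of miR-146a-5p were counted per 100 on MBP-MCP resin and 11.1 on bare resin. That quotient, 0.631, had an interval of 0.434 to 0.924 below 1. miR-92a-3p is the miRNA with the highest ratio among those with 50 reads, so this sets miR-146a-5p against an extreme.

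miRNAs reported elsewhere as induced through NF-kB, or with NF-kB sites at their genes, were taken as a list of 17, of which 15 were measured and 14 had at least 20 reads in a library. Of those 14, 2 had an interval above 1, 6 an interval below 1 and 6 an interval that included 1, or 14.3% above and 42.9% below. The shares over all 161 miRNAs were 11.2% and 23.6%, and over the 133 known miRNAs among them 12.0% and 19.5%. The median log2 ratio was −0.09 over the 14 and −0.15 without miR-155-5p and miR-146a-5p, beside −0.16 over all 161. The list holds known miRNAs only, and over the 133 known miRNAs the median was −0.06, above both values of the list. Under TMM scaling 3 of the 14 intervals lay above 1 and 3 below, beside 36 (22.4%) and 15 of the 161, and the median was 0.10, beside 0.04 over the 161. DESeq2 scaling put 4 of the 14 above and 2 below, beside 44 (27.3%) and 12 of the 161, with medians of 0.19 for the list and 0.12 for the 161. Scaled to the let-7 family, 1 lay above and 6 below, beside 10 (6.21%) and 49 of the 161, with medians of −0.15 for the list and −0.21 for the 161. Without the 5 most abundant miRNAs in the totals, 2 lay above and 4 below, beside 28 (17.4%) and 21 of the 161. The share above 1 in the list was thus near that over all miRNAs under each scaling. The share below 1 was larger in the list than over all miRNAs under each, from 2 to 6 of the 14. The scalings shift the same counts, and the gap between the 2 medians stays the same, so these are not separate results. By the 2-fold rule 0 of the 14 were called, beside 2.48% higher and 3.11% lower of the 161.

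miR-155-5p had the highest ratio of the 14. The other one above 1 was miR-221-3p, which represses the cell cycle inhibitor CDKN1B, with 1014 reads on MBP-MCP resin and 451 on bare resin (ratio 1.24, 1.11 to 1.38). miR-222-3p, from the same cluster as miR-221-3p, had 51 MBP-MCP and 30 bare-resin reads and a ratio of 0.935 (0.584 to 1.52). miR-34a-5p, better known as a p53 target, had 22 MBP-MCP and 11 bare-resin reads, too few to place it (ratio 1.10, 0.511 to 2.51). miR-30b-5p had 61 MBP-MCP and 34 bare-resin reads (ratio 0.987), and miR-23b-3p 89 MBP-MCP and 52 bare-resin reads (ratio 0.941). Both of those intervals included 1.

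The 6 miRNAs with an interval below 1 were led by miR-9-5p, a brain-enriched miRNA that represses NFKB1. It had 1215 reads on MBP-MCP resin and 1081 on bare resin and the lowest ratio of the list, 0.618 (0.569 to 0.672). miR-27b-3p had 1085 MBP-MCP and 821 bare-resin reads (ratio 0.727, 0.663 to 0.797). miR-143-3p, a miRNA of smooth muscle and fibroblasts, had 90 MBP-MCP and 78 bare-resin reads (ratio 0.635, 0.463 to 0.871). These 3 had negative log2 ratios under all 5 scalings, while miR-24-3p (1692 MBP-MCP and 1079 bare-resin reads, ratio 0.863) and miR-125b-5p (10378 MBP-MCP and 6539 bare-resin reads, ratio 0.873) had positive ones with DESeq2 size factors. miR-21-5p had 8475 MBP-MCP and 4937 bare-resin reads (ratio 0.944, 0.912 to 0.978) and a positive log2 ratio under TMM, DESeq2 and totals without the 5 most abundant. miR-301a-3p, which represses the NF-kB inhibitor NKRF, had 22 MBP-MCP and 18 bare-resin reads (ratio 0.672, 0.344 to 1.33). miR-132-3p, a neuronal miRNA also induced through CREB, had 9 MBP-MCP and 6 bare-resin reads, under the minimum.

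**Figure D4:**
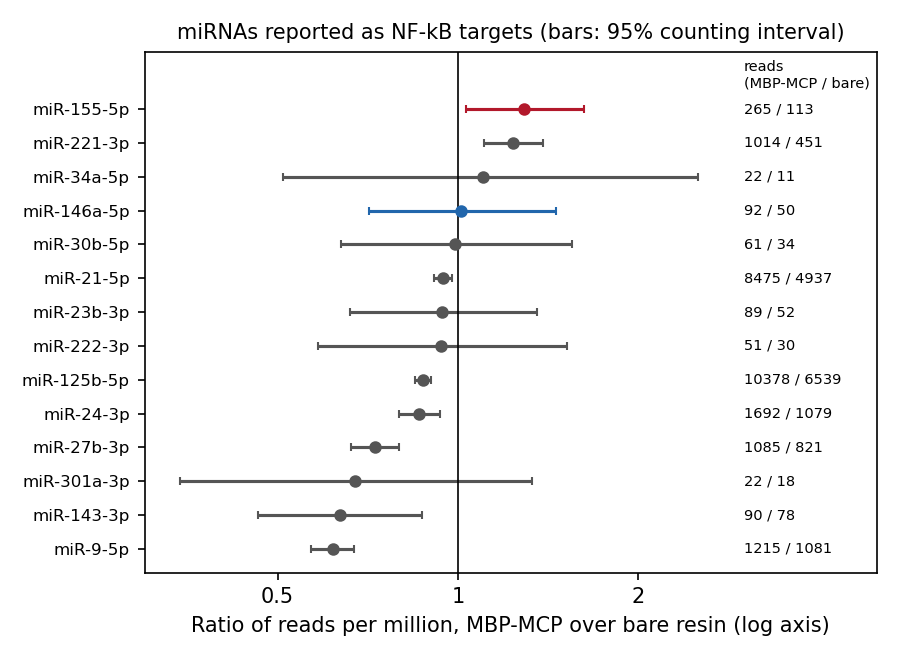
Ratio of RPM, MBP-MCP over bare resin (horizontal log axis), of 14 miRNAs reported as NF-kB targets, with 95% counting intervals and the reads in each library at the right. miR-155-5p at 1.29 is the highest and miR-9-5p at 0.618 the lowest; miR-146a-5p sits at 1.01.

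A second list held 12 miRNAs that act on the NF-kB pathway, with 10 measured and 7 at 20 reads or more. Of these 7, miR-16-5p (34274 MBP-MCP and 17015 bare-resin reads, ratio 1.11, 1.09 to 1.13) and miR-182-5p, which represses the deubiquitinase CYLD (529 MBP-MCP and 241 bare-resin reads, ratio 1.21, 1.03 to 1.41), had intervals above 1. miR-9-5p and miR-126-3p, an endothelial miRNA (386 MBP-MCP and 277 bare-resin reads, ratio 0.766, 0.655 to 0.898), had intervals below 1. miR-146a-5p, miR-15a-5p (79 MBP-MCP and 56 bare-resin reads, ratio 0.776) and miR-301a-3p had intervals that included 1. That is 28.6% above and 28.6% below, beside 11.2% and 23.6% of the 161, from 2 miRNAs each. With TMM factors 2 of the 7 lay above and 1 below, beside 36 (22.4%) and 15 of the 161. DESeq2 size factors also gave 2 and 1, beside 44 (27.3%) and 12. Without the 5 most abundant miRNAs in the totals these were 2 and 2, beside 28 (17.4%) and 21. The let-7 family gave 1 and 2, beside 10 (6.21%) and 49. The median log2 ratio of the 7 was −0.36, beside −0.16 over the 161 and −0.06 over the 133 known miRNAs among them. TMM factors moved the median of the 7 to −0.17, and DESeq2 size factors to −0.09. It was −0.24 without the 5 most abundant miRNAs in the totals and −0.42 with the let-7 family. A scaling shifts every log2 ratio alike, so the gap to the median of the 161 stays the same. These are not separate results. miR-181b-5p, with 11 MBP-MCP and 4 bare-resin reads, and miR-223-3p and miR-199a-3p, with 1 read in each library, were too rare to compare.

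miR-155-5p and miR-146a-5p are also markers of white blood cells, so the other markers of the leukocyte list were set beside them. Of 7 listed, 5 were measured. The remaining 3 had 135 reads together on MBP-MCP resin and 99 on bare resin, or 666 RPM on MBP-MCP resin and 889 RPM on bare resin, so their summed level did not follow that of miR-155-5p. miR-342-3p made up most of this, with 121 MBP-MCP and 87 bare-resin reads (ratio 0.765, 0.576 to 1.02). miR-142-3p, found in nearly all blood cells, had 13 MBP-MCP and 11 bare-resin reads, and miR-223-3p, the defining miRNA of myeloid cells, had 1 in each. Of 3 erythroid markers 2 were measured, miR-486-5p with 133 MBP-MCP and 62 bare-resin reads (ratio 1.18, 0.867 to 1.62) and miR-144-3p with 0 MBP-MCP and 2 bare-resin reads. Among 6 epithelial markers 1 was measured, miR-200a-3p with 1 read in each library, and among 6 mesenchymal markers 2 were, miR-143-3p and miR-199a-3p. Both libraries came from lysate of BT549, a cell line, so these markers are given as levels and not as a measure of a cell mixture. The part of other cell types in these values was not tested.

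SNHG15, the bait, is a lincRNA gene of chromosome 7 (GRCh38, minus strand, bases 44983023 to 44986961) for which GENCODE 29 lists 10 transcripts. Which of them the construct carries is not stated in the labels. The 7-base match to the seed of miR-155-5p, AGCATTA on the sense strand, was present in 0 of the 10 transcripts, and its 6-base core GCATTA also in 0. Of 8545 lncRNA transcripts in GENCODE 29 of at least 982 bases, the length of SNHG15-203, 4.14% held AGCATTA and 12.3% held GCATTA in their first 982 bases. For miR-146a-5p the 7-base match AGTTCTC was in 0 of the 10 transcripts, and 6.55% of those windows held it. Its 6-base core GTTCTC was in SNHG15-203 once, and 21.9% of the windows of that length held it. Over all isoforms of this 1 gene, which differ in length, 6 of the 10 carried the core, a number that cannot be set against the share of windows.

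That core stood at the same place in all 6 transcripts, chromosome 7 from 44983129 to 44983134, in the last part of the RNA, bases 871 to 876 of SNHG15-203. It is shown on the sense strand with the core in capitals and 10 bases on each side.
SNHG15 near its 3′ end: tgggtgccagGTTCTCtgcttccaga
The cores are contained in the 7-base motifs, so the searches are not independent. Only the sense strand was searched, since a miRNA pairs with the transcript itself. Whether matches go with recovery was not tested, and the ratios of the pair were not told apart. A match is a description of letters and says nothing of binding, and its absence nothing of other ways of pairing.

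In the authors' deposited table, miR-155-5p has a log2 fold change of 0.37, p = 0.0324 and an adjusted p of 0.441, and it is not called different. miR-146a-5p has a log2 fold change of 0.02 in the authors' deposited table, with p = 0.552 and an adjusted p of 0.893, and is not called either. Those values rest on 1 library for each resin and on a dispersion that the table does not state. By that p-value, miR-155-5p was the 29th of 407 miRNAs. The authors called 26 of the 407 different, 16 up and 10 down, so most miRNAs were not called.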

How the data were processed

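Small RNA eluted from MBP-MCP amylose resin or bare amylose resin was sequenced from 1 library each, with the mirVana and QIAseq miRNA kits per the labels' protocols. Per the submitters' processing notes the build was GRCh38. The aligner, the annotation of miRNAs and any use of molecular identifiers are not stated there. The authors deposited raw counts of 407 miRNAs, 357 named and 50 predicted, and Tpm values that are reads scaled to 1000000 (RPM), with no length term. Those RPM values of the authors divide by 202629 and 111453 reads, 0.0341% and 0.0350% above the totals of the counts, 202560 and 111414, which were used here. The log2 fold changes, p-values and adjusted p-values in the authors' deposited table were copied and not recomputed. There were 0 columns of other samples.

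Ratios are RPM on MBP-MCP resin over RPM on bare resin. For log2 ratios 0.5 reads, in proportion to depth, were first added to each count. Intervals are exact conditional binomial (Clopper-Pearson) at 95%, from scipy 1.17.1; those of pair quotients are conditional intervals of an odds ratio. Summaries over many miRNAs use those that reached 20 reads in either library. With 1 library per group no test of the conditions was made, and groups were taken from the resin treatment in the labels. Scaling alternatives used edgeR 4.0.16 (TMM factors of 0.935 and 1.07) and DESeq2 1.42.0 (size factors of 1.22 and 0.816). Other alternatives were totals without the 5 most abundant miRNAs, the let-7 sum, an added count of 5, minimums of 50 reads or none, a 1.5-fold threshold and known miRNAs alone. Sequences matched 321 of the 357 names in RefSeq. The interval and ratio steps were tested on simulated data. Named miRNAs are the pair, the 6 nearest in level to miR-155-5p, the measured members of the NF-kB and marker lists and the extremes among those with 50 reads; the nearest of miR-146a-5p, the neighbours in rank and the 4 partners of the pair quotients were added after values were seen. The members and lists were chosen with earlier results of these data known.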

Additional observations from a re-analysis of the deposited data

How the results depend on the processing

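No paired analysis was possible because each group holds 1 library, and for the same reason no replicate could be left out. The log2 ratio of miR-155-5p stayed positive under its 6 alternatives, from 0.31 with the let-7 sum to 0.64 with DESeq2 size factors, and all lay within its counting interval. That of miR-146a-5p, whose 6 alternatives were chosen after seeing the data, ran from −0.04 with the let-7 sum to 0.29 with DESeq2 size factors and changed sign with the let-7 sum. The median of the NF-kB target list turned positive with TMM factors, DESeq2 size factors and totals without the 5 most abundant miRNAs, where it was 0.03, and was −0.15 with the let-7 sum.

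Counts over all miRNAs moved more. The 4 miRNAs at least 2-fold higher became 2 with a prior count of 5, 0 with a minimum of 50 reads, 75 with no minimum, 2 among known miRNAs and 10 at 1.5-fold. The 5 at least 2-fold lower became 2 with TMM factors, 1 with DESeq2 size factors, 2 with a prior count of 5, 0 with a minimum of 50 reads, 79 with no minimum, 1 among known miRNAs and 23 at 1.5-fold. The 18 intervals above 1 became 36 with TMM factors, 44 with DESeq2 size factors, 28 without the 5 most abundant miRNAs and 10 with the let-7 sum. The 38 below 1 became 15, 12 and 21 under the first 3 of these and 49 with the let-7 sum. The rank of 17 of miR-155-5p became 6 with a minimum of 50 reads and 110 with no minimum, as fewer or more miRNAs entered. For the other changes in the counts the cause was not tested. The 142 reads of miR-146a-5p limit what its ratio can show.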
